A study of Mus musculus with 16 samples.

Results

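The transcripts followed here mark blood monocytes, namely Ly6c2, Ccr2, Cx3cr1, Itgal, Chil3, F13a1, Plac8, Ifitm6 and Ms4a6c. They were measured by RNA-seq in the left ventricle (labelled myocardium) of mice of the strain C57BL/6, all male, after abdominal surgery under sevoflurane, an inhaled anaesthetic. They were chosen by gene symbol, with earlier results of these data known, and all 9 of 9 were found among the 57143 genes of the deposited table. RNA was collected at 0h, 3h, 24h and 7d, with 4 libraries at each time. Every library, 0h included, carries the label of abdominal surgery, so 0h is the earliest time and not an unoperated group. The labels give no age, and nothing in them ties the 4 libraries of a time to separate mice, so p-values measure the spread between these libraries.

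Classical monocytes of the mouse carry Ly6C at the cell surface and leave the bone marrow through the chemokine receptor CCR2, which answers to the ligand CCL2. Non-classical monocytes patrol vessel walls, carry little Ly6C and depend on CX3CR1, the receptor of fractalkine. The healthy heart holds resident macrophages, and monocytes enter the injured heart from blood. Several of the transcripts are not private to monocytes: Cx3cr1 and F13a1 are also made by macrophages, and Chil3, Plac8 and Ifitm6 also by neutrophils.

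Ly6c2, the gene that defines classical monocytes, is shown first because most of its coding sequence is the same as that of its neighbour Ly6c1, which endothelial cells express. Both lie on chromosome 15 on the minus strand, Ly6c2 at chr15:75108158-75111970 and Ly6c1 at chr15:75044018-75048830 (GRCm38, GENCODE M21). The first 180 of 393 coding bases of each follow, with the 6 bases that differ in capitals.
Ly6c2: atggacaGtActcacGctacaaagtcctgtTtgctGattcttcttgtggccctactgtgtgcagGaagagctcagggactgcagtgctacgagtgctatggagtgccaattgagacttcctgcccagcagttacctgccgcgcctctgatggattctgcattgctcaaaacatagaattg
Ly6c1: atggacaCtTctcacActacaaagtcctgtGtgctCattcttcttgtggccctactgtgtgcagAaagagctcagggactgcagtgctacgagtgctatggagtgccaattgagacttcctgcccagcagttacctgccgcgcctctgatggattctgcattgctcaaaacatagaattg
Over the whole coding sequence 384 of 393 bases were identical (97.7%), with a longest identical run of 188 bases. Of the 50-base windows in the annotated transcripts of Ly6c2, 13.9% also occurred in Ly6c1. Reads from such windows cannot be assigned to one of the pair, and the counting rule is not given in the sources used here, so a Ly6c2 count may include reads of Ly6c1 or miss its own.

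The promoters of Ms4a6c and Chil3 are shown because both genes were called higher than at 0h. The sequences come from RefSeq (GRCm38.p6), run 5′ to 3′ toward the start site, hold no annotated exon, and have the motif AGGAAGT, bound by the myeloid factor PU.1, or its reverse complement in capitals.
Ms4a6c, chr19:11469118-11469365, plus strand: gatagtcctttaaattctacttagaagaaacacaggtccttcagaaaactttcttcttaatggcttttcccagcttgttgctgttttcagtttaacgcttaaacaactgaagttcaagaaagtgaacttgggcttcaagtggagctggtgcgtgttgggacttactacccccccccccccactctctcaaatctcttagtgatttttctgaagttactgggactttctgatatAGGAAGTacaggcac
Chil3, chr3:106167565-106167814, minus strand: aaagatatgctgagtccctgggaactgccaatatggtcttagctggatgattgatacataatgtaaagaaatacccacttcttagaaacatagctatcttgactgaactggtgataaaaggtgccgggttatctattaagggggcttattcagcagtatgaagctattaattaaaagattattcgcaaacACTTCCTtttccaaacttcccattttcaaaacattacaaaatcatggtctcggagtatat
The window before the Cx3cr1 start overlapped annotated exons and is not printed; it held no AGGAAGT. RefSeq promoters were found for 8 of the 9 genes, in 11 windows of 250 bases before a start site. AGGAAGT was present on either strand in 6 of the 11 windows, for Chil3, F13a1, Ifitm6, Ly6c2 and Ms4a6c, against 7.69% of all 32851 windows of that length. The 2 windows of Ly6c2 overlap, so the same letters are counted in both. The motif TTNCNNAA of C/EBP factors was in 9 of 11 windows, against 36.8% of all windows. CCAAT was in 5 of 11 windows, against 33.8% of all windows. AGAACA of the glucocorticoid receptor, GCGTGGGCG of EGR factors and the decamer kappa-B motif of NF-kappa-B were in 0 of 11 windows, against 16.1%, 0.536% and 0.14% of all windows. The motifs were chosen after the promoters had been seen, and a match is a string of letters, not a bound site.

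Library totals were 8313655 to 12649395 counts at 0h, 9062897 to 9662775 at 3h, 9105939 to 11318253 at 24h and 10316467 to 12893551 at 7d. Levels are given in TPM, a measure scaled for transcript length and library size, with the SD over n = 4 libraries, and changes as the log2 fold change of edgeR's quasi-likelihood F test over 16866 genes, called at an adjusted p under 0.05. Relative to 0h, the median of log2(TPM + 1) over these genes moved by -0.15 at 3h, -0.19 at 24h and -0.08 at 7d, while the median log2 fold change after TMM scaling was 0.00, -0.01 and 0.00. Fold changes are therefore relative to the bulk of genes. Some libraries stood apart in Myl7 or Alb, and the source of these transcripts was not tested. Myl7, a myosin light chain of atrial muscle, reached 146 TPM in 3h replicate 3 and 63.8, 126 and 159 TPM in 24h replicates 1, 2 and 4, and was 9.59 TPM or less in the other 12 libraries. Alb, the liver's albumin, reached 35.6 and 28.5 TPM in 3h replicates 2 and 3 and 5.42 TPM or less elsewhere. The summed level of the atrial markers Myl7, Nppa, Sln and Myl4 ranked the libraries otherwise. It was highest in 7d replicate 2 (2762 TPM) and 0h replicate 3 (1465 TPM). It was 738 TPM in 3h replicate 3 and 860, 1004 and 690 TPM in 24h replicates 1, 2 and 4. Libraries called Myl7-rich below are named for Myl7 alone. The other genes lie at chr9:124101950-124113557 (Ccr2, plus strand), chr7:127296260-127335138 (Itgal, plus), chr13:36867178-37050244 (F13a1, minus), chr5:100553725-100572245 (Plac8, minus) and chr7:141015699-141017924 (Ifitm6, minus). Exons of Cx3cr1, F13a1 and Ms4a6c overlap those of a gene annotated on the other strand, Gm33858, Gm30489 and BE692007 in turn. The library kit keeps the strand, but the strand setting of the counting is not given in the sources used here, so reads of these genes could be counted together.

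**Figure D1:**
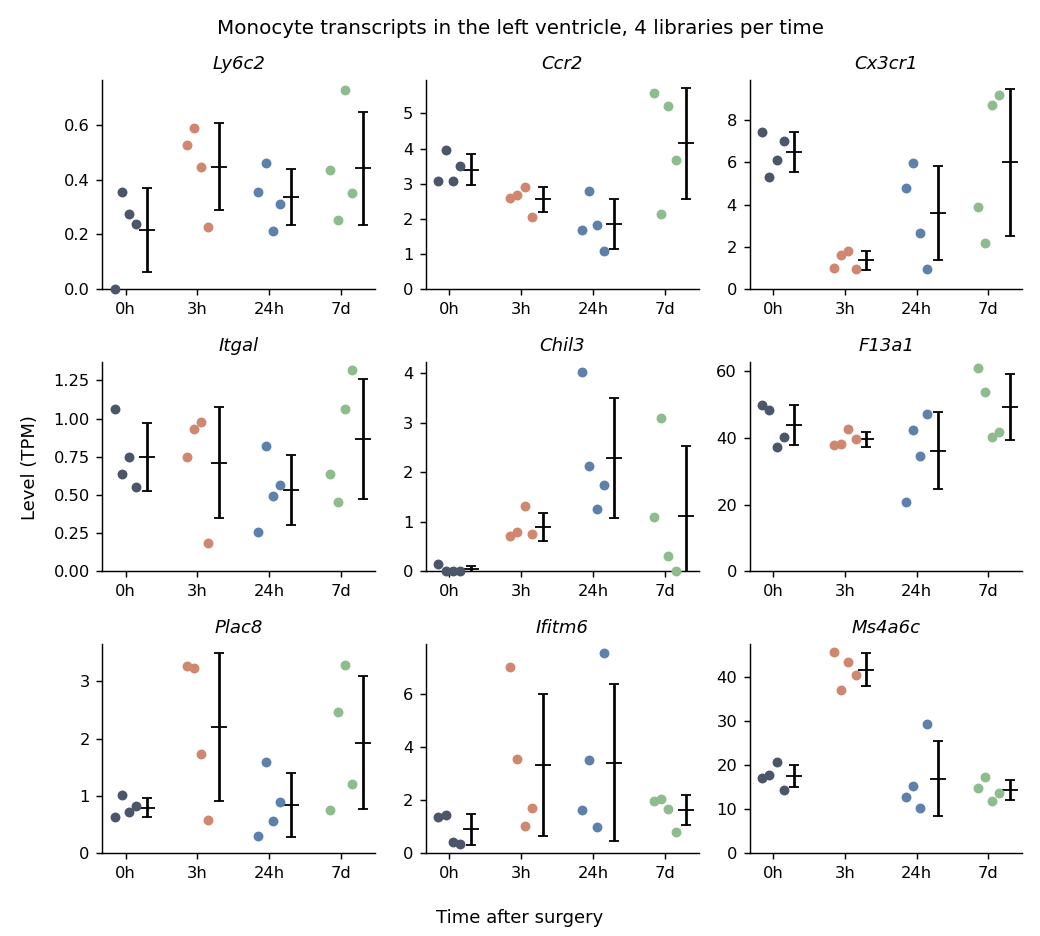
Levels in TPM (vertical axis, a scale for each gene) of the 9 transcripts at each time after surgery (horizontal axis), with a point for each library and a black bar for the mean ± SD of 4 libraries. Ms4a6c sits between 37.1 and 45.7 TPM at 3h and Cx3cr1 between 0.964 and 1.84 TPM.

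Of the 9 transcripts, 8 passed the filter of a mean of 0.5 TPM over the 16 libraries and were tested; Ly6c2 did not. A change over time was called for 4 of the 8, Ms4a6c, Chil3, Ccr2 and Cx3cr1, where 20.2% of all genes tested were called. In that test Ms4a6c and Chil3 stayed called without any 1 of the 16 libraries. Cx3cr1 was lost without 0h replicates 1, 3 or 4 or any 1 of the 3h libraries. Ccr2 was lost without 24h replicate 4 or 7d replicates 1 or 3. At 3h against 0h, Ms4a6c was called higher and Cx3cr1 lower, 2 of 8 against 5.04% of all genes. At 24h against 0h, Chil3 was called higher, 1 of 8 against 17.4% of all genes, a share near the background. At 7d against 0h, edgeR called 0 of 8 against 0.86% of all genes, with 2 of the 8 at an unadjusted p under 0.05; DESeq2 called 1, Chil3. The median log2 fold change of the 8 was 0.77 at 3h, 0.07 at 24h and 0.33 at 7d, beside a median of 0.00, -0.01 and 0.00 over all genes tested. The 3h median describes no member. It falls between Cx3cr1 (-2.07), Ccr2 (-0.23), F13a1 (0.04) and Itgal (0.09) below and Ms4a6c (1.44), Plac8 (1.64), Ifitm6 (2.01) and Chil3 (3.86) above. Plac8, Ifitm6 and Chil3 were not called at 3h and had few counts at 0h. The TPM ranges did not overlap for 4 of the 8 at 3h against 0h, where 24% of all genes tested did not overlap, for 2 at 24h against 0h (21.2%) and for 0 at 7d against 0h (9.98%). These comparisons share the 0h libraries. In the comparisons between later times, 1 of 8 was called at 24h against 3h, where 7.58% of all genes were called, 1 at 7d against 24h (8.08%) and 2 at 7d against 3h (4.61%). Ranges did not overlap for 1 of 8 at 24h against 3h (11% of all genes), 0 at 7d against 24h (9.42%) and 2 at 7d against 3h (12.8%).

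**Figure D2:**
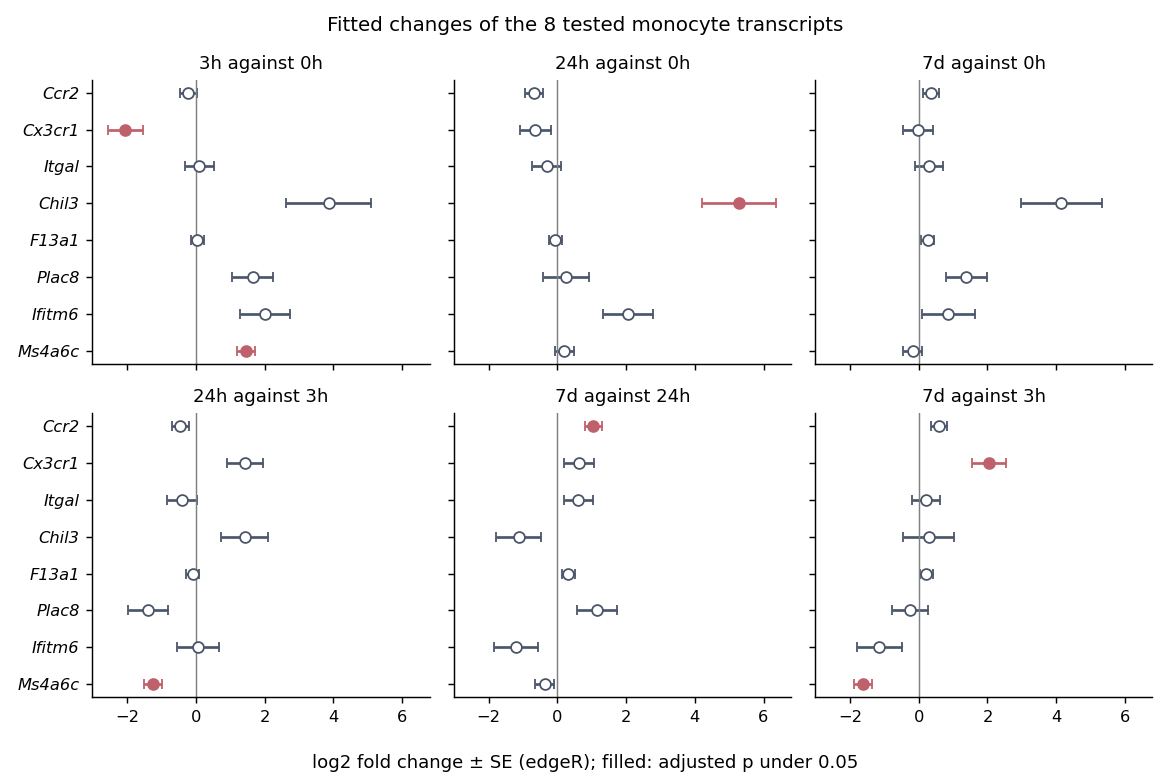
Fitted log2 fold change ± SE (horizontal axis) of the 8 tested transcripts (vertical axis) in the 6 comparisons of times, filled where the adjusted p was under 0.05. Filled points are Cx3cr1 and Ms4a6c at 3h, Chil3 at 24h, Ms4a6c in 24h against 3h, Ccr2 in 7d against 24h, and Cx3cr1 and Ms4a6c in 7d against 3h.

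Ms4a6c, a multi-pass membrane protein of the MS4A family found in monocytes and macrophages, was higher at 3h than at any other time. The gene lies at chr19:11469366-11482192 on the plus strand. It had 17.2, 17.8, 20.6 and 14.4 TPM at 0h, 45.7, 37.1, 43.4 and 40.4 TPM at 3h, 12.8, 15.3, 10.2 and 29.3 TPM at 24h, and 14.8, 17.3, 11.9 and 13.6 TPM at 7d. Every 3h library stood above every library of the other times, and 24h replicate 4 stood above the other 24h libraries. Ms4a6c averaged 41.7 ± 3.75 TPM at 3h and 17.5 ± 2.54 TPM at 0h (SD, n = 4 each), a log2 fold change of 1.44 with an SE of 0.26, or 2.72-fold (edgeR adjusted p = 0.00589).

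Ms4a6c was not called at 24h or 7d against 0h. Relative to 3h, it fell by 1.25 on the log2 scale at 24h (edgeR adjusted p = 0.00741) and by 1.62 at 7d (adjusted p = 0.00177). It was called without each of the 8 libraries of each of these comparisons in turn, with adjusted p of at most 0.0301 at 3h against 0h, 0.0346 at 24h against 3h and 0.01 at 7d against 3h. With the 24h and 3h libraries fitted alone, the adjusted p for 24h against 3h was 0.0669. The 24h libraries averaged 16.9 ± 8.52 TPM, against 17.5 ± 2.54 TPM in the 0h libraries (adjusted p = 0.66).

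Of its relatives, Ms4a6d was also called higher at 3h against 0h, and Ms4a6b was not. Ms4a6d had 25.3, 24.3, 23.6 and 16.6 TPM at 3h, against 9.49, 9.32, 15.4 and 9.28 TPM at 0h, and no 3h library overlapped the 0h range (log2 fold change 1.24, edgeR adjusted p = 0.0369). That call was lost without any 1 of 6 of the 8 libraries, namely 0h replicates 1, 2 and 4 and 3h replicates 1, 2 and 3, with adjusted p up to 0.124. Ms4a6b had 17.9, 13.3, 15.1 and 14.6 TPM at 3h, against 8.12, 9.37, 11.4 and 6.23 TPM at 0h, also with no overlap (log2 fold change 0.99, adjusted p = 0.165). At 7d against 3h edgeR called both lower, Ms4a6d (adjusted p = 0.0155) and Ms4a6b (0.0406), where 4.61% of all genes were called. There Ms4a6d was lost without 3h replicate 1 or 7d replicates 1 or 4. Ms4a6b was lost without any 1 of 7 libraries, all but 7d replicate 2. In 24h replicate 4, where Ms4a6c was 29.3 TPM, Ms4a6d was 25.6 TPM and Ms4a6b 15.7 TPM. Of the 50-base windows of Ms4a6c transcripts, 10.5% also occurred in another gene, 5.85% in Ms4a6b.

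**Figure D3:**
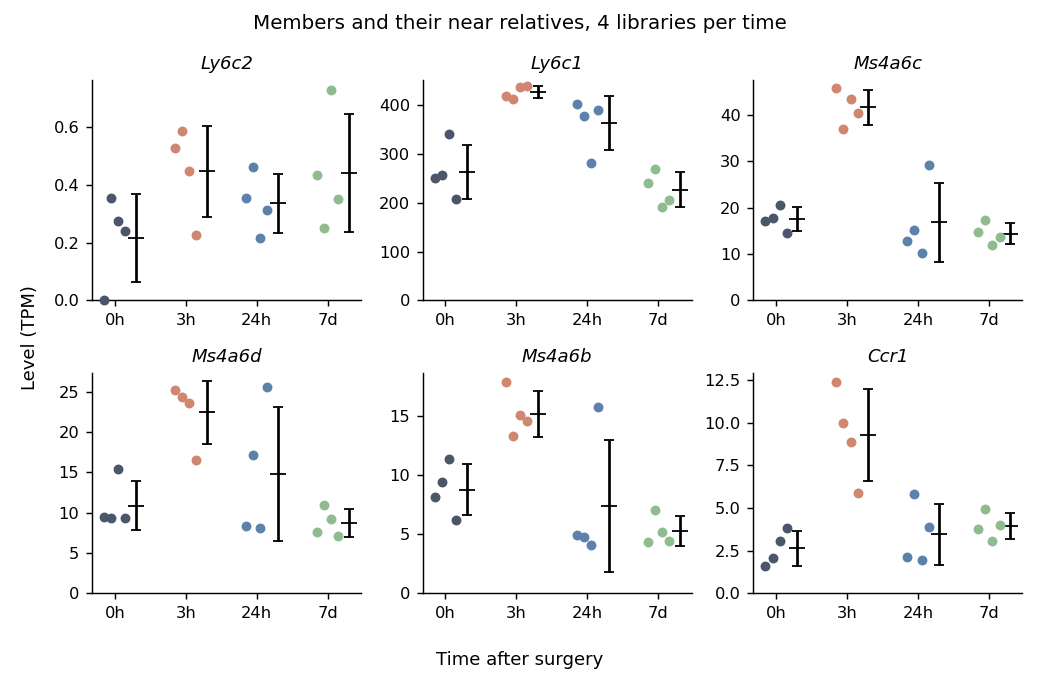
Levels in TPM (vertical axis, a scale for each gene) of Ly6c2 and Ms4a6c beside relatives at each time after surgery (horizontal axis), with a point for each library and the mean ± SD of 4 libraries. Ly6c1 lies between 191 and 439 TPM where Ly6c2 stays at 0.727 TPM or less.

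Ly6c2 itself was at the limit of detection. It had 0, 3, 2 and 2 counts at 0h, 5, 5, 4 and 2 at 3h, 4, 4, 2 and 3 at 24h, and 4, 3, 8 and 4 at 7d. In TPM these counts were 0.217 ± 0.152 at 0h, 0.446 ± 0.158 at 3h, 0.335 ± 0.103 at 24h and 0.441 ± 0.205 at 7d (SD, n = 4 each), and the times overlapped. Scaled to library totals, the summed counts were 2.42 times as high at 3h as at 0h, with a 95% exact interval of 0.943 to 6.96 that covers counting error only. A difference was thus not detectable at this depth; the exact permutation test of log2(TPM + 1), two-sided, gave p = 0.114 at 3h, 0.257 at 24h and 0.143 at 7d against 0h.

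Ly6c1, the near copy, was abundant and was higher at 3h and 24h than at 0h. It had 420, 413, 437 and 439 TPM at 3h, against 251, 256, 340 and 209 TPM at 0h, with no overlap (log2 fold change 0.88, SE 0.16, edgeR adjusted p = 0.00336). At 24h it had 403, 378, 281 and 392 TPM, against the same 0h libraries (log2 fold change 0.70, adjusted p = 0.00425; 0.758 without the Myl7-rich libraries, which leaves 1 library at 24h). At 7d it averaged 227 ± 35.6 TPM, against 264 ± 55.2 TPM at 0h, and was not called (adjusted p = 0.765). How many Ly6c1 reads were counted as Ly6c2 was not tested.

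Ccr2, the receptor that classical monocytes follow out of the marrow, was lowest at 24h and highest at 7d by mean. It had 3.06, 3.97, 3.07 and 3.5 TPM at 0h, 2.6, 2.67, 2.9 and 2.06 TPM at 3h, 1.69, 2.81, 1.82 and 1.09 TPM at 24h, and 5.59, 2.14, 5.2 and 3.66 TPM at 7d. All 3h and all 24h libraries stood below all 0h libraries, while 7d replicate 2 fell within the 24h range. Ccr2 was 4.15 ± 1.57 TPM at 7d and 1.85 ± 0.71 TPM at 24h, a log2 fold change of 1.05 with an SE of 0.25 (edgeR adjusted p = 0.00971). The adjusted p was 0.0723 with these times fitted alone, 0.44 with Myl7 as a covariate and 0.281 without the Myl7-rich libraries, which leaves 1 library at 24h. It was 0.00125 to 0.0446 with any 1 of the 8 libraries left out. The two-sided exact permutation test gave p = 0.0571. At 24h against 0h the log2 fold change was -0.68 and was not called (adjusted p = 0.0616; 0.0247 without 24h replicate 2 and 0.0218 with no filter), and at 3h it was -0.23 (adjusted p = 0.619).

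Among the ligands that attract monocytes, Ccl2, the ligand of CCR2, was called higher at 24h, in a group that 1 library dominated. It had 17.9, 100 and 23.2 TPM in 24h replicates 1, 2 and 3 and 7 TPM in replicate 4, against 11.6, 9.66, 10.6 and 11.3 TPM at 0h (log2 fold change 1.91, edgeR adjusted p = 0.0333). The call at 24h against 0h was lost without any 1 of the 4 0h libraries, with edgeR adjusted p up to 0.0805. Without 24h replicate 2 it held, with a log2 fold change of 0.80 (adjusted p = 0.0453). Without the Myl7-rich libraries it did not, a fit that leaves 1 library at 24h, too few to judge the call. At 3h Ccl2 had 4.81, 5.66, 5.11 and 4.62 TPM, below every 0h library, a log2 fold change of -0.91 that was not called (adjusted p = 0.451). At 24h against 3h edgeR called Ccl2 higher (adjusted p = 0.0137), where 7.58% of all genes were called. That call held without any 1 of the 8 libraries, with a log2 fold change of 1.71 without 24h replicate 2 (adjusted p = 0.00116). It was lost without the Alb-rich 3h replicates 2 and 3 (adjusted p = 0.136). Ccl7 and Ccl12, further ligands of CCR2, were 74.2 and 110 TPM in the same 24h replicate 2, against 3.55 to 16.7 and 6.35 to 14.5 TPM in the other 24h libraries, and neither was called at 24h against 0h (adjusted p = 0.295 and 0.141). Of the 10 ligands tested in the list of 11, 1 was called higher at 3h against 0h, Il34, a ligand of the receptor Csf1r. At that comparison 5.04% of all genes were called. Without 0h replicate 1 the edgeR adjusted p of Il34 was 0.0531.

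**Figure D4:**
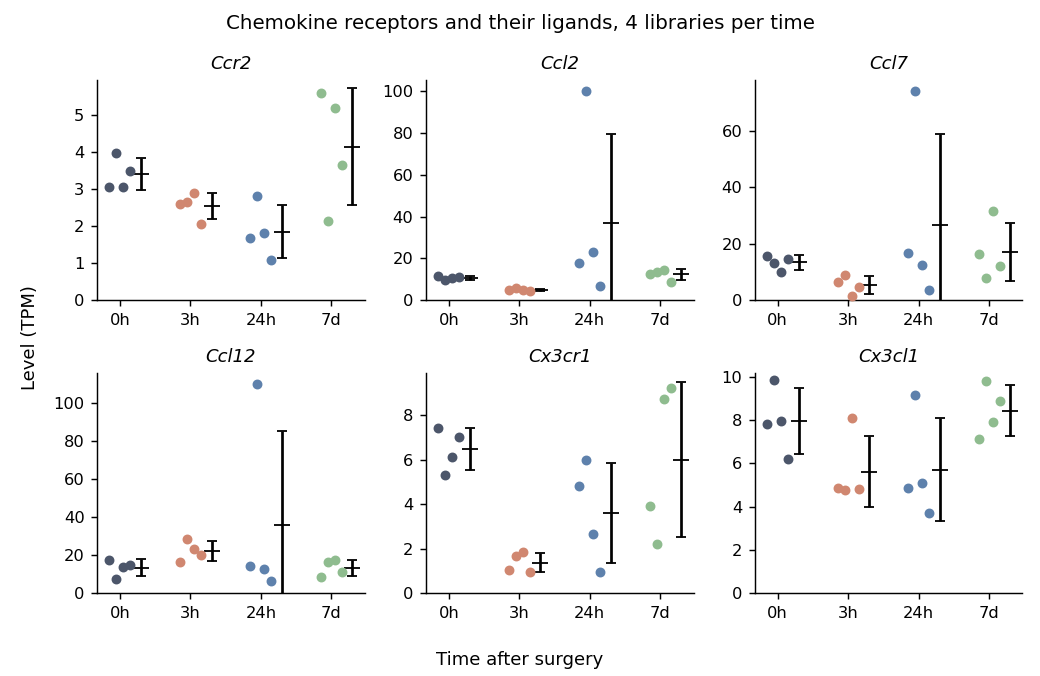
Levels in TPM (vertical axis, a scale for each gene) of Ccr2 with its ligands Ccl2, Ccl7 and Ccl12, and of Cx3cr1 with its ligand Cx3cl1, at each time after surgery (horizontal axis), with a point for each library and the mean ± SD of 4 libraries. Cx3cr1 is 0.964 to 1.84 TPM at 3h, and the 3 ligands of CCR2 peak in 24h replicate 2; their SD bars at 24h are cut at 0.

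Cx3cr1, the fractalkine receptor of non-classical monocytes and macrophages, was lower at 3h than at 0h. The gene lies at chr9:119901616-120069879 on the minus strand. It had 7.44, 5.32, 6.13 and 7.02 TPM at 0h, 1.03, 1.65, 1.84 and 0.964 TPM at 3h, 4.81, 5.98, 2.68 and 0.949 TPM at 24h, and 3.91, 2.2, 8.7 and 9.2 TPM at 7d. The 3h libraries did not overlap those of 0h or 7d, and both later times spread widely. Cx3cr1 was 1.37 ± 0.439 TPM at 3h and 6.48 ± 0.945 TPM at 0h (SD, n = 4 each), 4.18-fold lower, a log2 fold change of -2.07 with an SE of 0.51 (edgeR adjusted p = 0.0332).

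At 7d against 3h Cx3cr1 was higher by a log2 fold change of 2.05, with an SE of 0.51 (edgeR adjusted p = 0.0325). The calls of Cx3cr1 at 3h against 0h and at 7d against 3h lie close to the threshold and varied with the setting. Both held by DESeq2, with DESeq2's size factors in edgeR, with no filter and with the compared times fitted alone. Both were lost with a replicate block and with Myl7 as a covariate. The two-sided exact permutation test gave p = 0.0286 for each, the smallest it can give. Without any 1 of the 8 libraries of 3h and 0h, the adjusted p at 3h was 0.0565 to 0.11, while the log2 fold change stayed between -2.21 and -1.94. At 7d against 3h the adjusted p was 0.00586 to 0.107, over the threshold without any 1 of the 4 3h libraries or 7d replicates 3 or 4. At 3h against 0h the adjusted p was 0.0986 without 3h replicates 2 and 3, the libraries rich in Alb. Its ligand Cx3cl1 had 4.84, 4.75, 8.09 and 4.8 TPM at 3h, against 7.81, 9.87, 7.97 and 6.19 TPM at 0h, and was not called (adjusted p = 0.4).

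Chil3, a secreted chitinase-like lectin of monocytes, neutrophils and activated macrophages, was nearly absent at 0h. The gene lies at chr3:106147554-106167564 on the minus strand. It had 1, 0, 0 and 0 counts at 0h, 4, 4, 7 and 4 at 3h, 27, 11, 7 and 10 at 24h, and 6, 22, 2 and 0 at 7d. Every 3h and 24h library stood above every 0h library, and 7d replicate 4 had no count. At 24h, 55 counts in all stood against 1 count at 0h, a ratio of 53.5 after scaling to library totals with a 95% exact interval of 9.21 to 2152, which covers counting error only (edgeR adjusted p = 0.00227).

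Chil3 stayed called at 24h against 0h without any 1 of the 8 libraries, with adjusted p from 0.000704 to 0.012. The adjusted p was 0.166 with Myl7 as a covariate and 0.269 without the Myl7-rich libraries, which leaves 24h replicate 3, with 7 counts, against 1 count in 4 libraries at 0h. The ratio at 3h against 0h was 20.1, with an interval of 3.2 to 837 (edgeR adjusted p = 0.0698; 0.00662 with these times fitted alone and 0.00457 with no filter), and at 7d it was 25, with an interval of 4.16 to 1021 (adjusted p = 0.0845; 0.0213 without 7d replicate 4, 0.00193 with no filter and 0.0273 by DESeq2). Chil3 shares 26.9% of its 50-base windows with another gene, chiefly Chil4 (16.9%), which was at 0 in every library.

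F13a1, the catalytic subunit of the clotting factor that cross-links fibrin, was abundant in every library and was called in none of the 6 comparisons, though without 24h replicate 4 it was higher at 7d than at 24h (adjusted p = 0.0456). It was 43.8 ± 6.02 TPM at 0h, 39.6 ± 2.21 TPM at 3h, 36.1 ± 11.6 TPM at 24h and 49.1 ± 9.89 TPM at 7d (SD, n = 4 each). Its log2 fold change against 0h was 0.04 at 3h, -0.06 at 24h and 0.26 at 7d, with adjusted p of 0.935, 0.856 and 0.554. Itgal, the alpha chain of the integrin LFA-1 that binds ICAM-1 on endothelium, was 0.75 ± 0.224 TPM at 0h, 0.711 ± 0.362 at 3h, 0.533 ± 0.23 at 24h and 0.867 ± 0.393 at 7d. It too was called in none of the 6 comparisons, with adjusted p from 0.419 to 0.927. Its partner chain Itgb2 was 9.74 ± 1.44 TPM at 3h and 11.4 ± 0.474 TPM at 0h and was not called (adjusted p = 0.916).

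Plac8 and Ifitm6 were higher in some later libraries, and edgeR as fitted here called neither. Plac8, a small cysteine-rich protein of myeloid cells, had 3.26, 3.24, 1.73 and 0.583 TPM at 3h, against 0.627, 1.02, 0.711 and 0.826 TPM at 0h (log2 fold change 1.64, edgeR adjusted p = 0.102; 0.0329 with these times fitted alone). At 7d it had 0.747, 2.46, 3.29 and 1.21 TPM (log2 fold change 1.39 against 0h, adjusted p = 0.258). Ifitm6, of the interferon-induced transmembrane family, had 7.01, 3.56, 1.01 and 1.71 TPM at 3h and 1.61, 3.49, 0.973 and 7.54 TPM at 24h, against 1.38, 1.43, 0.417 and 0.363 TPM at 0h. Its log2 fold change against 0h was 2.01 at 3h (adjusted p = 0.104) and 2.06 at 24h (adjusted p = 0.0501). Other settings did call Ifitm6: at 24h DESeq2 (adjusted p = 0.0294), edgeR with DESeq2's size factors (0.0487), edgeR with no filter (0.0121) and edgeR without 24h replicate 3 (0.0136), and at 3h edgeR with no filter (0.029), with these times fitted alone (0.0281) and without the Myl7-rich libraries (0.0201). Without 3h replicate 1 its log2 fold change at 3h was 1.27, and without 24h replicate 4 that at 24h was 1.22, neither called. Both genes rest on few counts, 16 and 11 in all at 0h, and their later libraries overlap the 0h range.

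Of the 20 genes of the wider myeloid list, 18 were tested, and at 3h against 0h 2 were called higher, Ccr1 and Msrb1, and 1 lower, Cybb, a subunit of the oxidase of phagocytes, where 5.04% of all genes were called. At 24h against 0h, where 17.4% of all genes were called, Msrb1 alone of the 18 was called by edgeR, and DESeq2 called it with Fn1. Msrb1, which reduces oxidised methionine, averaged 403 TPM at 24h and 279 TPM at 0h (log2 fold change 0.76, edgeR adjusted p = 0.00165). Its 24h call held without any 1 library. It was lost without the Myl7-rich libraries, which leaves 1 library at 24h, too few to judge the call. The 3h calls of Msrb1 and Cybb were lost without any 1 of 7 of the 8 libraries, all but 0h replicate 4 for Msrb1 and all but 3h replicate 3 for Cybb, with adjusted p up to 0.169 and 0.14. Ccr1, a chemokine receptor of monocytes and neutrophils, had 12.4, 10, 8.85 and 5.9 TPM at 3h, against 1.59, 2.05, 3.06 and 3.83 TPM at 0h (log2 fold change 2.03, edgeR adjusted p = 0.00206). Csf1r, the growth factor receptor of monocytes and macrophages, was 34.9 ± 3.47 TPM at 3h and 42.8 ± 6.84 TPM at 0h and was not called (edgeR adjusted p = 0.593). Msrb1, at 279 TPM at 0h, stood far above Csf1r, and which cells of the ventricle made it was not tested. Of 10 non-classical monocyte markers, 8 were tested, and edgeR called none at 3h against 0h, with 2 at an unadjusted p under 0.05. DESeq2 called 1, Fcgr4, which was higher at 3h, at 8.37 to 11.8 TPM against 3.93 to 7.51 TPM at 0h. At 7d against 3h edgeR called Fcgr4 lower (adjusted p = 0.00492), where 4.61% of all genes were called. That call held without any 1 library and was lost without the Alb-rich 3h replicates 2 and 3 (adjusted p = 0.0633). At 24h against 0h Ace, the angiotensin-converting enzyme, also made by endothelium, was called lower (log2 fold change -0.63, edgeR adjusted p = 0.0168). Ace averaged 27.8 TPM at 24h and 49.6 TPM at 0h. The call was lost without 0h replicate 1 or 24h replicate 1. It was also lost without the Myl7-rich libraries, which leaves 1 library at 24h, too few to judge it. Nr4a1, the nuclear receptor non-classical monocytes need, was 12.3, 7.16, 8.02 and 7.93 TPM at 3h, against 28.2, 11.9, 19.6 and 14.6 TPM at 0h (adjusted p = 0.406). In bulk RNA, fewer cells of a type and less RNA per cell cannot be told apart.

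Neutrophil markers also changed over these times, and their part in the results of the 9 transcripts was not tested. Of 16 neutrophil markers, 11 were tested. Against 0h, edgeR called 9 of the 11 higher at 3h, where it called 5.04% of all genes, and 7 at 24h (17.4%). DESeq2 called 5 and 7. S100a9, Retnlg, Cxcr2 and Clec4d stayed called at 3h without any 1 library, while Wfdc21 was lost without any 1 of 7 (all but 3h replicate 2), Mmp8 without any 1 of 5 (the 0h libraries and 3h replicate 1), Csf3r without any 1 of 4 (0h replicates 1, 2 and 3 and 3h replicate 1), and S100a8 and Il1r2 without 0h replicate 1. At 24h, S100a8, S100a9, Retnlg and Clec4d held without any 1 library, while Wfdc21 was lost without any 1 of 5 (0h replicates 1, 2 and 3 and 24h replicates 2 and 4), Mmp8 without any 1 of 4 (0h replicates 1, 2 and 3 and 24h replicate 4) and Cxcr2 without 0h replicate 2. Without the Myl7-rich libraries, which leaves 1 library at 24h, all 7 of these 24h calls were lost, with adjusted p from 0.21 to 1. Their summed level was 12.2 to 14.2 TPM at 0h, 163 to 591 TPM at 3h, 79.4 to 343 TPM at 24h and 19 to 114 TPM at 7d. Ltf, Ly6g, Stfa2l1 and Wfdc21 were at 0 in all 0h libraries. S100a9, a calcium-binding protein of neutrophils, was 356, 113, 80.8 and 92.5 TPM at 3h, against 6.21, 4.34, 2.89 and 4.41 TPM at 0h. The neutrophil sum was highest in 3h replicate 1 and 24h replicate 4, which also held the highest Ifitm6 levels, 7.01 and 7.54 TPM. In 24h replicate 4 Ms4a6c too was highest of its group, while Ccr2 and Cx3cr1 were lowest of that time, at 1.09 and 0.949 TPM. Chil3 was highest in 24h replicate 1, at 4.02 TPM, where the neutrophil sum of 79.4 TPM was the lowest of that time. Of 15 resident macrophage markers tested, C1qa and C1qb, subunits of complement, were called higher at 3h against 0h, where 5.04% of all genes were called. Folr2, a folate receptor, and Gas6, a ligand of the receptor Mertk, were called lower at 24h against 0h. That is 2 of 15 at 24h, a share below the 17.4% of all genes called there. The call of C1qa was lost without any 1 of 6 libraries, all but 3h replicates 2 and 3, and that of C1qb without any 1 of 7, all but 3h replicate 4, with adjusted p up to 0.154 and 0.153. At 24h against 0h, leaving out 24h replicate 1 ended the call of Gas6 (edgeR adjusted p = 0.0535). Leaving out the Myl7-rich libraries leaves 1 library at 24h, too few to judge the calls of Gas6 and Folr2. At 24h against 3h, 4 of the 15 were called lower, Cd163, Folr2, Cbr2 and Gas6, where 7.58% of all genes were called. At 7d against 24h, 4 were called higher, Timd4, Folr2, Cbr2 and Gas6 (8.08%). In both comparisons Folr2 and Gas6 held without any 1 library. The calls of Cd163, Timd4 and Cbr2 were each lost without some single libraries.

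**Figure D5:**
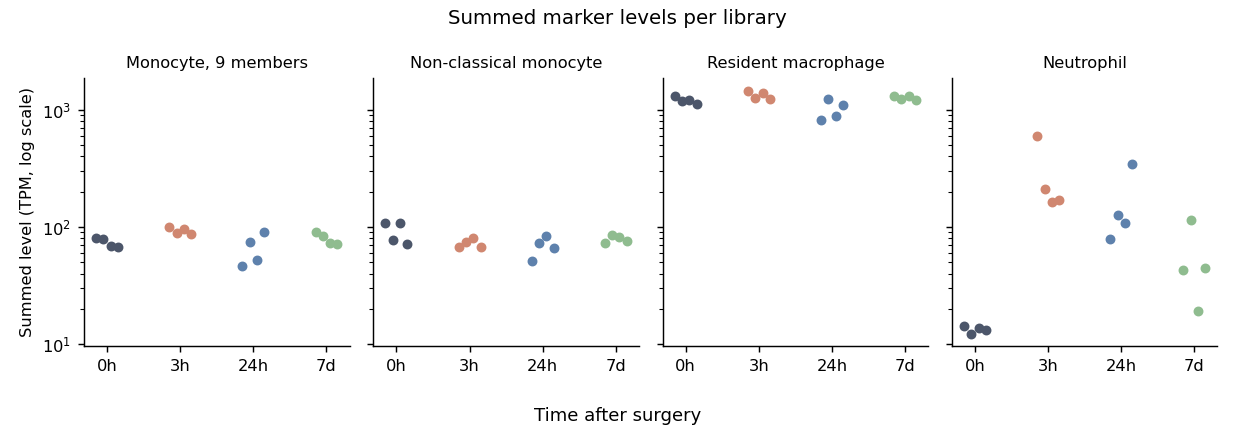
Summed level in TPM (vertical axis, log scale) of the markers of 4 cell types in each library at each time after surgery (horizontal axis). Neutrophil sums run from 12.2 to 14.2 TPM at 0h and from 163 to 591 TPM at 3h. The 9 monocyte transcripts sum to 67.1 to 80.6 TPM at 0h, 86.6 to 99.4 TPM at 3h and 46.5 to 89.6 TPM at 24h. The largest members of that sum are F13a1, with means of 43.8 TPM at 0h and 39.6 TPM at 3h, and Ms4a6c, with 17.5 and 41.7 TPM. The higher sum at 3h follows Ms4a6c and is not a rise of the set.

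The entry of leukocytes through vessel walls involves adhesion molecules, of which 14 were tested. At 3h against 0h, 1 was called higher, Selp, the P-selectin of activated endothelium and platelets. In the same comparison 1 was called lower, Itga4, an integrin chain that binds VCAM. Of all genes tested, 5.04% were called there. Itga4 was lost without any 1 of 7 libraries, all but 3h replicate 2, with adjusted p up to 0.11. Selp was 1.05, 0.802, 1.25 and 0.28 TPM at 3h, against 0.226, 0.22, 0.171 and 0.223 TPM at 0h (log2 fold change 2.14, edgeR adjusted p = 0.0227). The 3h call of Selp was lost without any 1 of 5 libraries, 0h replicates 1, 2 and 3 and 3h replicates 1 and 3, with adjusted p up to 0.0828, and DESeq2 did not call it, calling Itga4 and Jam2. At 24h Selp had 0.33, 1.29, 0.865 and 0.58 TPM, above every 0h library (log2 fold change 1.98, edgeR adjusted p = 0.015), a call held without any 1 library. Called lower at 24h against 0h were Itga4 (log2 fold change -0.88, edgeR adjusted p = 0.0148), except without 24h replicate 1, and Jam2, a junctional adhesion molecule (-0.42, adjusted p = 0.00433). With Selp these were 3 of 14 at 24h, where 17.4% of all genes were called, a share near the background. DESeq2 called all 3 at 24h. All 3 were lost without the Myl7-rich libraries, which leaves 1 library at 24h, too few to judge the calls. Of the 21 tested genes of the T and NK cell, B cell, platelet and erythroid lists, edgeR and DESeq2 called 0 at 3h, 24h or 7d against 0h; at an unadjusted p under 0.05 edgeR had 2 at 3h, 1 at 24h and 0 at 7d.

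The pattern over the 16 libraries most like that of Cx3cr1 was found in Egr3, an immediate early transcription factor, with Pearson r = 0.94, then Afdn (0.92) and Snx18 (0.92). For Ccr2 the most alike were Pcdhgb2 (r = 0.85), Sertad2 (0.84) and P2ry13 (0.83). For Ms4a6c, a gene added to this comparison after its values had been seen, they were Rgcc (r = 0.97), Gm49839 (0.96) and Arrdc2 (0.96). For Ly6c2 they were Bad (0.80), Cpsf4 (0.79) and Gm34030 (0.78), which with 0 to 8 counts a library is no finding. These are log2 CPM values in libraries that share time and depth, picked as the highest of all tested genes, and carry no p.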

How the data were processed

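RNA of 16 left ventricle libraries was sequenced as polyA RNA from a directional kit, per the labels' protocols. Per the submitters' processing notes, cutadapt, STAR and the build mm10 were used; for the counting, neither tool nor strand rule is given in the sources used here. The authors deposited raw counts, TPM and FPKM per gene; counts are not normalized, and recomputing both length-scaled units from counts and gene lengths matched the deposited TPM and FPKM within a relative 1e-06. Columns were assigned by the time and number in their names, whose prefix differs from the sample titles.

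The 16866 of 57143 genes whose mean TPM reached 0.5 entered the test, edgeR's quasi-likelihood F test after TMM scaling (robust, 16 libraries in 1 fit, no replicate block), with Benjamini-Hochberg adjustment over all genes tested and a threshold of 0.05. The script was tested on simulated data. Count ratios have exact 95% intervals that cover counting error only. Single values were also tested by exact permutation of log2(TPM + 1) over 8 libraries; its smallest two-sided p is 0.0286. Alternatives were DESeq2's size factors, DESeq2, no filter, a replicate block, a fit of the compared groups alone, and each library left out; those that leave out libraries rich in Myl7 or Alb, or use Myl7 as a covariate, were added after seeing the data. Same-numbered libraries deviated from their group means with correlations of -0.12 to 0.06, so numbers were not taken to pair libraries. The members and the gene lists were chosen with earlier results of these data known. Text names all 9 members and, from other lists, up to 4 genes of smallest p in the test of any change and genes called in a comparison described, with relatives of the members; Cx3cl1, Ccl7, Ccl12, Csf1r, Nr4a1 and Itgb2 were named for their roles. Gene positions are from GENCODE M21 (GRCm38), matched by gene ID. The software was edgeR 4.0.16 and DESeq2 1.42.0 in R 4.3.3.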

Additional observations from a re-analysis of the deposited data

Results flagged for a closer look

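In groups of 4 libraries, 92 groups of values of 23 genes were screened for a library far from the other 3 (gap over range above Dixon's 95% critical value); chance alone flags about 1 in 20 groups, and 10 values were found. Chil3 was 0.153 TPM in 0h replicate 1, which is 1 count, and 0 in the other 0h libraries. Chil3 was 1.31 TPM in 3h replicate 3 and 0.707 to 0.789 TPM in the other 3h libraries. Ms4a6b was 15.7 TPM in 24h replicate 4 and 4.06 to 4.93 TPM in the others of that time. Ms4a6d was 15.4 TPM in 0h replicate 3 and 9.28 to 9.49 TPM in the others. Ccl12 was 110 TPM in 24h replicate 2 and 6.35 to 14.5 TPM in the others. Cx3cl1 was 8.09 TPM in 3h replicate 3 and 4.75 to 4.84 TPM in the others. S100a9 was 356 TPM in 3h replicate 1 and 80.8 to 113 TPM in the others. Nr4a1 was 12.3 TPM in 3h replicate 1 and 7.16 to 8.02 TPM in the others. Fcgr4, an Fc receptor of non-classical monocytes, was 7.51 TPM in 0h replicate 3 and 3.93 to 4.12 TPM in the others. Selp was 0.171 TPM in 0h replicate 3 and 0.22 to 0.226 TPM in the others.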

How the results depend on the processing

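Of the genes tested, 850 were called at 3h, 2933 at 24h and 145 at 7d against 0h, 1279 at 24h against 3h, 1363 at 7d against 24h, 778 at 7d against 3h and 3402 for any change; of the 8 members, 2, 1, 0, 1, 1, 2 and 4. DESeq2 called 1415 genes at 3h and 478 at 7d against 0h, with 2 members at 24h and 1 at 7d. With DESeq2's size factors in edgeR, 2 members were called at 24h, Chil3 and Ifitm6. Without a filter, 1786 genes and 4 members were called at 3h, 4 members at 24h and 735 genes and 1 member at 7d against 0h, 2 members at 24h against 3h, 2 at 7d against 24h and 1458 genes at 7d against 3h. With the compared groups alone, 3224 genes and 5 members were called at 3h and 408 genes at 7d against 0h, 812 genes and 0 members at 24h against 3h, and 354 genes and 0 members at 7d against 24h. With the replicate block, 1 member was called at 3h against 0h, 64 genes at 7d against 0h and 1 member at 7d against 3h; Cx3cr1 was the call lost in each (adjusted p = 0.0726 and 0.0821), and the numbers do not pair the libraries.

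Without the Alb-rich 3h replicates 2 and 3, 351 genes and 1 member were called at 3h against 0h, 338 genes at 24h against 3h, and 238 genes and 1 member at 7d against 3h. Without the Myl7-rich 3h replicate 3 and 24h replicates 1, 2 and 4, the counts were 1809 genes at 3h against 0h, 120 genes and 0 members at 24h against 0h, 503 genes at 24h against 3h, 68 genes and 0 members at 7d against 24h, 1174 genes at 7d against 3h, and 2052 genes and 2 members for any change. With Myl7 as a covariate they were 187 genes and 1 member at 3h against 0h, 86 and 0 at 24h against 0h, 539 genes at 24h against 3h, 23 and 0 at 7d against 24h, 222 and 1 at 7d against 3h, and 883 and 1 for any change; Ms4a6c was the member called in each of these that called 1. Leaving out the Myl7-rich libraries leaves 1 library at 24h, so a loss of calls at 24h in that fit says little. The cause of these shifts was not tested.

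Leaving out 1 library at a time, the genes called ranged from 286 (without 0h replicate 1) to 585 at 3h against 0h, 1575 (without 24h replicate 1) to 4262 (without 24h replicate 3) at 24h against 0h, 27 to 267 (without 7d replicate 4) at 7d against 0h, 756 to 1644 at 24h against 3h, 755 to 2407 at 7d against 24h, and 444 to 774 at 7d against 3h. Members called numbered 1 in each such fit at 3h against 0h, and ranged over 1 to 2 at 24h against 0h, 0 to 1 at 7d against 0h, 1 to 2 at 24h against 3h, 1 to 2 at 7d against 24h, and 1 to 3 at 7d against 3h. No called fold change of a member changed sign under any alternative run, and 41 uncalled member values did. Ly6c2, Chil3, Plac8 and Ifitm6 are limited by depth, with 0 to 27 counts a library.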

Other observations

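Of 15 relatives of the members in the same gene families tested, 6 were called higher at 3h against 0h: Ly6c1, Ly6a, Ccr1, Ms4a6d, Ifitm2 and Tgm2, where 5.04% of all genes were called. At 24h against 0h, 4 were called higher, Ly6c1, Ly6a, Ifitm1 and Ifitm3, where 17.4% of all genes were called, so this share is not far from the background. At 7d edgeR and DESeq2 called 0, with 2 at an unadjusted p under 0.05 in edgeR. All 4 of the 24h calls were lost without the Myl7-rich libraries, which leaves 1 library at 24h (adjusted p = 0.758 for Ly6c1, 0.916 for Ly6a, 0.358 for Ifitm1 and 0.814 for Ifitm3). Ifitm1, an antiviral membrane protein, had 16.4, 33.8, 22.5 and 28.1 TPM at 24h, against 7.98, 10.3, 6.55 and 6.01 TPM at 0h (log2 fold change 1.90, edgeR adjusted p = 0.00441). Tgm2, a transglutaminase like F13a1, had 202, 225, 244 and 224 TPM at 3h, against 163, 171, 204 and 162 TPM at 0h (log2 fold change 0.54, adjusted p = 0.0133; 0.0667 without 0h replicate 1). The 3h call of Ifitm2 was lost without any 1 of 7 libraries, all but 3h replicate 2, and the 24h call of Ifitm3 without any 1 of 5, 0h replicates 2, 3 and 4 and 24h replicates 2 and 4.

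Of 7 dendritic cell markers tested, Zbtb46, a transcription factor of conventional dendritic cells and endothelium, was called lower at 3h, with 5.93, 6.36, 7.04 and 5.82 TPM, against 10.4, 8.74, 11.7 and 9.62 TPM at 0h (log2 fold change -0.50, edgeR adjusted p = 0.0174), a call lost without 0h replicates 1 or 3 or 3h replicate 4. It was also called lower at 24h, except without 0h replicate 3, as was Siglech, a lectin of plasmacytoid dendritic cells, whose call was lost without any 1 of 7 libraries, all but 24h replicate 3. Clec10a, a lectin of dendritic cells and macrophages, was called higher at 24h, with 7.79, 9.38, 4.56 and 8.83 TPM, against 5.42, 4.79, 2.6 and 3.97 TPM at 0h (log2 fold change 1.07, edgeR adjusted p = 0.00695). Over all genes tested, 5.04% were called at 3h and 17.4% at 24h against 0h. Without the Myl7-rich libraries the 24h calls of Clec10a, Zbtb46 and Siglech were lost. That leaves 1 library at 24h, too few to judge the calls.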
